A study of Rattus norvegicus with 96 samples.

Results

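The difference in gene expression between the NAc core and the NAc shell of the same rat was compared between animals given nicotine (NIC) and animals given saline (SAL). The members were chosen by a rule that used labels alone. Each animal contributed its core library and its shell library, which came from the same animal and the same box of samples, and female 1 was left out by that rule. This gave 31 of 32 animals and 62 of the 96 libraries of the series, the remainder being mostly libraries of the VTA. The groups were 8 male NIC, 8 male SAL, 7 female NIC and 8 female SAL rats, and each box held 1 sex, so that box and sex are the same covariate.

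All animals were F1 progeny of the inbred Fischer-344 and Brown Norway strains from both directions of the cross, and were treated in early adulthood. NIC animals received 0.4 mg/kg of nicotine (as base) once a day for 4 days, and SAL animals received saline on the same schedule. The labels place the tissue harvest on day 17, and the methods of the study place it 2 weeks after the 4 days of injections. The study used this schedule to model NIC sensitization (SST), a lasting increase in the locomotor response to the drug. The tissue was dissected by hand, which limits how cleanly core and shell were separated, and each library is bulk tissue. A lower level of a gene in bulk tissue can mean fewer cells of a type or less RNA per cell, and these cannot be told apart.

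The NAc is the ventral part of the striatum, and its main cells are GABAergic spiny projection neurons that receive glutamatergic input from cortex, hippocampus, amygdala and thalamus and dopaminergic input from the VTA. The core resembles dorsal striatum in its wiring and is tied to cue-driven and motor aspects of reward, whereas the shell projects to hypothalamus and extended amygdala and is tied to the primary effects of drugs. Nicotine acts on nicotinic acetylcholine receptors of VTA neurons, of dopamine terminals and of cholinergic interneurons in the NAc, and a treatment that acted unequally on core and shell would show as a shifted core-shell difference.

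The values below are log2 differences of CPM (reads scaled to library size, not divided by gene length), core minus shell, within each animal. A positive value is a gene higher in the core and a negative value is a gene higher in the shell. The NIC effect is the difference of those differences, NIC minus SAL, with sex held as a covariate. A positive NIC effect therefore means that the balance of the gene was shifted toward the core in NIC rats, and a negative one that it was shifted toward the shell.

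The 62 libraries held between 15868529 and 23841019 counts assigned to genes. The log2 ratio of core total to shell total differed by -0.02 between NIC and SAL animals (permutation test within sex, two-sided, p = 0.772). Library preparation batch, as the labels give it, followed treatment closely. Core and shell of the same animal were in the same batch in 27 animals. Among these, 2 male batches held only SAL animals and 1 held only NIC animals, and 3 female batches held only NIC animals and 1 held only SAL animals. Batch C (3 NIC and 2 SAL males, male 9 among them) and batch J (2 NIC and 2 SAL females) held both treatments, so that values within these batches are given beside most of the genes described singly over both sexes. The other 4 animals, male NIC 10 and female SAL 13, 14 and 15, had 1 of their libraries in batch L.

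The core-shell difference of male NIC 9 ran against its labels, and in some other animals it resembled that of the rest only weakly. Across genes, the difference of each animal was correlated with the mean difference of all other animals, and the coefficient had a median of 0.425 and a maximum of 0.621. For male NIC 9 it was -0.243, for female SAL 11 it was 0.132 and for male SAL 1 it was 0.187. Each library was also placed on an axis running from the typical shell to the typical core of the other animals, on which a negative position is shell-like and a positive one core-like. Male 9 had its core library at -0.325 and its shell library at 0.191, so that the libraries stood in reversed order. Male 1 had its core at 0.665 and its shell at 0.293, which was the highest position of any shell library, and every shell library other than those of males 1 and 9 was below 0. In male 9 the shell peptides neurotensin (Nts) and Cart (Cartpt) were higher in the core library, by 0.75 and 1.50. In male 1 they were higher in the core by 3.14 and 3.39. Results are therefore also given without males 9 and 1.

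**Figure D1:**
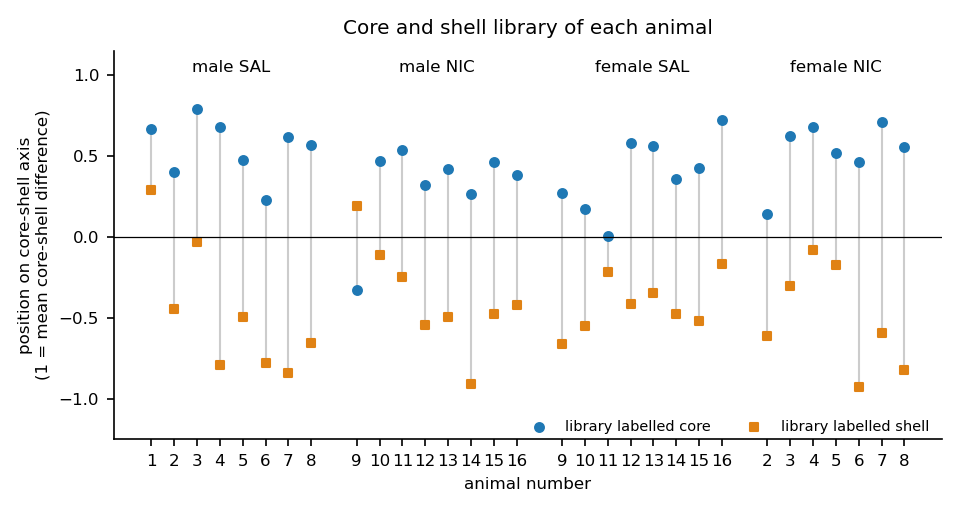
Position of each core and shell library on the axis from typical shell (negative) to typical core (positive), by sex and treatment, with a line joining the pair of libraries of each animal. The pair of male 9 runs in the reversed direction, from 0.191 in the shell library to -0.325 in the core library, and male 1 has the highest shell library, at 0.293.

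With these exceptions, the labelled regions carried the markers of core and shell. Over all 31 animals 6006 of 16502 genes tested (36.4%) differed between core and shell at an adjusted p under 0.05 (edgeR quasi-likelihood test with Benjamini-Hochberg adjustment, as for every count and adjusted p below unless another tool is named), 2945 higher in the core and 3061 higher in the shell. Of the core-side markers tested 3 of 4 passed, with calbindin (Calb1) higher in the core by 0.93 and the sodium channel subunit Scn4b by 0.68, while the cannabinoid receptor Cnr1 had a difference of 0.12 (adjusted p = 0.232). All 6 shell-side markers tested passed, including Nts at -1.03, Cartpt at -0.96, the Notch-related ligand Dlk1 at -1.39 and Zcchc12 at -0.52. The largest core-over-shell difference among named genes was that of Igfn1, a gene of the immunoglobulin-fibronectin family, at 2.93, with the core higher in 31 of 31 animals. On the shell side Prdm12, a transcription factor, reached -2.54 and Slc18a2, the vesicular monoamine transporter, -2.50.

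NIC had no detectable effect on the core-shell difference of any single gene once all genes were accounted for. At an adjusted p under 0.05, 0 of 16502 genes passed over both sexes, and the lowest adjusted p was 0.697. At an unadjusted p under 0.05 there were 1033 genes (6.26%), against 825.1 expected if every p-value were uniform. Of these, 532 (3.22%) were shifted toward the core in NIC animals and 501 (3.04%) toward the shell. DESeq2 on the same design also gave 0 genes at an adjusted p under 0.05, with 1113 unadjusted, and limma on the within-animal differences gave 0, with 1088 unadjusted.

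The shifts were small. Among the 956 genes with an unadjusted p under 0.05 and a mean of at least 1 CPM, the median size of the NIC effect was 0.22 on the log2 scale, and 6 exceeded a 2-fold change. The median NIC effect over all genes tested was -0.01. Without males 9 and 1 the unadjusted count was 1363, and without male 1 alone it was 1445. With preparation batch as a further term in the 27 animals whose core and shell shared a batch, the count was 689 and the share shifted toward the core was 35.8%, against 49.4% in the same animals without that term and 51.5% in all 31. The part of batch in the 1033 genes cannot be told apart from that of treatment where a batch held 1 treatment.

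Gene symbols were known for 7900 of the genes tested, and these are mostly genes that the study lists as changed in its own comparisons of the same animals or as carrying informative variants. Among them 769 (9.73%) had an unadjusted p under 0.05, so counts in the gene lists below should be read against that share. For genes with a symbol the median NIC effect was 0.01 and 51.6% were above 0.

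The size of the core-shell difference over all genes together did not differ detectably between the treatments. For each animal the root mean square of the log2 difference was taken over genes with a mean of at least 1 CPM. In NIC animals it ran from 0.440 to 0.748 with a median of 0.520, and in SAL animals from 0.434 to 0.669 with a median of 0.532. The ranges overlapped almost fully, and the mean difference of NIC minus SAL was -0.000577 (permutation test within sex, two-sided, p = 0.983). The means were 0.523 under NIC and 0.559 under SAL in males and 0.551 and 0.515 in females, so that the sexes had opposite signs, a difference that was not tested. On the shell-to-core axis the gap between the libraries of an animal had a median of 0.871 in NIC animals, from -0.516 to 1.39, and of 0.922 in SAL animals, from 0.224 to 1.47. The NIC minus SAL difference of that gap was -0.05 (permutation p = 0.731) and -0.01 without males 9 and 1 (permutation p = 0.910).

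Among genes that separate core from shell, the NIC effects on the known markers ran from -0.29 for Cnr1 to 0.16 for Scn4b and Rasgrp2 on the core side, with Calb1 at -0.02. On the shell side they ran from -0.43 for Calcr, the calcitonin receptor, to 0.65 for the dopamine receptor Drd3. Drd3 had a mean of only 0.618 CPM, and its changes in log2 CPM were 0.19 in the core and -0.17 in the shell. Nts was at 0.07 and Cartpt at 0.13. Both values include male SAL 1, at 3.14 for Nts and 3.39 for Cartpt, where all other male SAL rats were below 0. None of the 4 core-side or 6 shell-side markers tested had an unadjusted p under 0.05 over both sexes. The shell-side values had different signs in the sexes, with 6 of 6 above 0 and a median of 0.73 in males (0.60 without males 9 and 1) and with 1 of 6 above 0 and a median of -0.26 in females. The sex difference of the shell-side markers had a median of -0.85, with 2 of 6 at an unadjusted p under 0.05, beside 6.47% of all genes with a symbol. Of the 5650 genes with a mean of at least 1 CPM that differed between core and shell at an adjusted p under 0.05, 43.8% had the larger core-shell difference in NIC animals, a share that was 50.2% without males 9 and 1. An unadjusted p under 0.05 for NIC was found for 413 of them (7.31%), close to the 6.26% of all genes tested.

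The genes with the smallest p-values are described next. They were picked for those p-values, and all had an adjusted p between 0.697 and 0.783, so their agreement across animals and sexes is a description and gives no further support. The 10 genes shifted most toward the core by that rule were Hvcn1, Notch3, Myl12a, Ehd2, LOC108348151, Mdc1, Erf, AABR07015812.2, Rasl10b and Klhdc9. Those shifted toward the shell were Eprs, Ccpg1, Slf1, Fbxo33, Rxfp1, Ube2v2, Snx4, AC127076.1, Pnrc1 and Emc7. All 20 had the same direction in males and females, and 8 had an unadjusted p under 0.05 in each sex.

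Hvcn1 (ENSRNOG00000001270) encodes a voltage-gated proton channel best known from phagocytes and microglia. Its core-shell difference had a lowest, median and highest value of -0.84, -0.48 and 0.09 in male NIC rats and of -3.78, -1.58 and -0.84 in male SAL rats. In females the same values were -0.98, -0.21 and 0.58 under NIC and -3.46, -0.75 and -0.19 under SAL. SAL animals were higher in the shell without exception, and NIC animals had a smaller shell excess, with male groups that met at their edges and female groups that overlapped. The NIC effect was 1.20 with a standard error (SE) of 0.280 (unadjusted p = 0.000147, adjusted p = 0.697). Permuting treatment within sex gave p = 1e-05, the smallest value that 100000 permutations can give. Mean levels were low, at 1.74 CPM in NIC core against 1.14 in SAL core and 2.08 in NIC shell against 2.80 in SAL shell, so that both regions contributed. Within batch C the NIC effect was 1.83 and within batch J 0.70. The batch C value rests on SAL males 7 and 8, which were far apart at -1.03 and -3.78, and on NIC males at -0.84 to -0.32.

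Notch3 (ENSRNOG00000004346), the Notch receptor of vascular smooth muscle cells and pericytes, was shifted toward the core by 0.33 (SE 0.0786, unadjusted p = 0.000218). Male NIC rats ranged from -0.18 to 0.26 with a median of 0.08, and male SAL rats from -0.64 to -0.02 with a median of -0.37. Female NIC rats ranged from -0.28 to 0.04 with a median of -0.07, and female SAL rats from -1.02 to -0.08 with a median of -0.33. All 15 NIC animals were above the SAL median of their own sex, although the ranges overlapped in both sexes. The change lay in the core, where NIC minus SAL was 0.32, against -0.01 in the shell. The effect was 0.19 in batch C (0.12 without male 9) and 0.20 in batch J, and 0.19 (unadjusted p = 0.115) with batch as a term.

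Ehd2, an ATPase that stabilizes caveolae at the plasma membrane, was shifted toward the core by 0.39 (SE 0.0980, unadjusted p = 0.000339). Its median difference was -0.03 in male NIC, -0.26 in male SAL, 0.03 in female NIC and -0.33 in female SAL rats. Single values ran from -0.20 to 0.72 among NIC animals of both sexes and from -0.77 to 0.25 among SAL animals, so that the groups overlapped. Within batches C and J the effect on Ehd2 was 0.55 and 0.23. Mdc1, a scaffold of the DNA damage checkpoint, was shifted toward the core by 0.51 (SE 0.129, unadjusted p = 0.000422). Female NIC rats had differences of Mdc1 from 0.12 to 0.90 with a median of 0.44, and female SAL rats from -0.67 to 0.17 with a median of -0.10. In males the Mdc1 medians were 0.10 under NIC and -0.32 under SAL, with highest values of 0.72 and 0.33. Within batches the NIC effect on Mdc1 was -0.06 in C (-0.17 without male 9) and 0.60 in J, so the male batch that held both treatments did not show it. Myl12a, a regulatory light chain of non-muscle myosin, was shifted by 0.26 and Erf, an ETS-domain repressor, by 0.19.

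Rasl10b, a small Ras-like GTPase, had one of the larger shifts at 0.95 (SE 0.268, unadjusted p = 0.00117), with medians of 0.43 and -0.10 in male NIC and SAL rats and of 0.67 and -0.53 in female NIC and SAL rats. Values ran from -0.49 to 2.54 among NIC animals and from -1.50 to 1.11 among SAL animals, a wide overlap. Its level in the core was 16.7 CPM in NIC and 7.49 CPM in SAL animals on average, and it was the only one of the 20 genes whose core and shell moved to the same side. Its NIC effect was -0.77 in batch C and 1.43 in batch J, and 0.25 with batch as a term (unadjusted p = 0.650).

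Toward the shell, Eprs, the glutamyl-prolyl-tRNA synthetase, had a small shift of -0.16 with a narrow spread (SE 0.0400, unadjusted p = 0.000248). Male NIC rats ranged from -0.19 to 0.08 with a median of -0.12 and male SAL rats from -0.04 to 0.24 with a median of 0.13. Female NIC rats ranged from -0.13 to 0.08 with a median of -0.05 and female SAL rats from -0.12 to 0.27 with a median of 0.11. Eprs was thus slightly higher in the core in most SAL animals and slightly higher in the shell in most NIC animals. Its NIC effect was -0.06 in batch C and -0.19 in batch J. Ccpg1, a receptor for the degradation of endoplasmic reticulum by autophagy, had a shift of -0.19 and Emc7, a subunit of the membrane protein insertion complex of the endoplasmic reticulum, one of -0.12.

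Slf1, a factor that recruits the SMC5/6 complex to sites of DNA repair, was shifted by -0.42 (SE 0.104, unadjusted p = 0.0003). Its difference ran from -0.73 to -0.10 with a median of -0.48 in male NIC rats and from -0.33 to 0.42 with a median of 0.12 in male SAL rats. In females it ran from -0.55 to 0.14 with a median of -0.17 under NIC and from -0.23 to 0.84 with a median of 0.01 under SAL. All 8 male NIC rats had more Slf1 in the shell, and the groups overlapped in both sexes. Rxfp1, the receptor of the peptide relaxin, was shifted by -0.58 (SE 0.156, unadjusted p = 0.000793). Its medians were 0.02 in male NIC and 0.96 in male SAL rats and 0.09 in female NIC and 0.34 in female SAL rats, so the core excess seen under SAL was smaller under NIC, with overlapping ranges. Within batches C and J the NIC effect was -0.39 and -0.55 for Slf1 and -1.20 and -0.35 for Rxfp1.

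**Figure D2:**
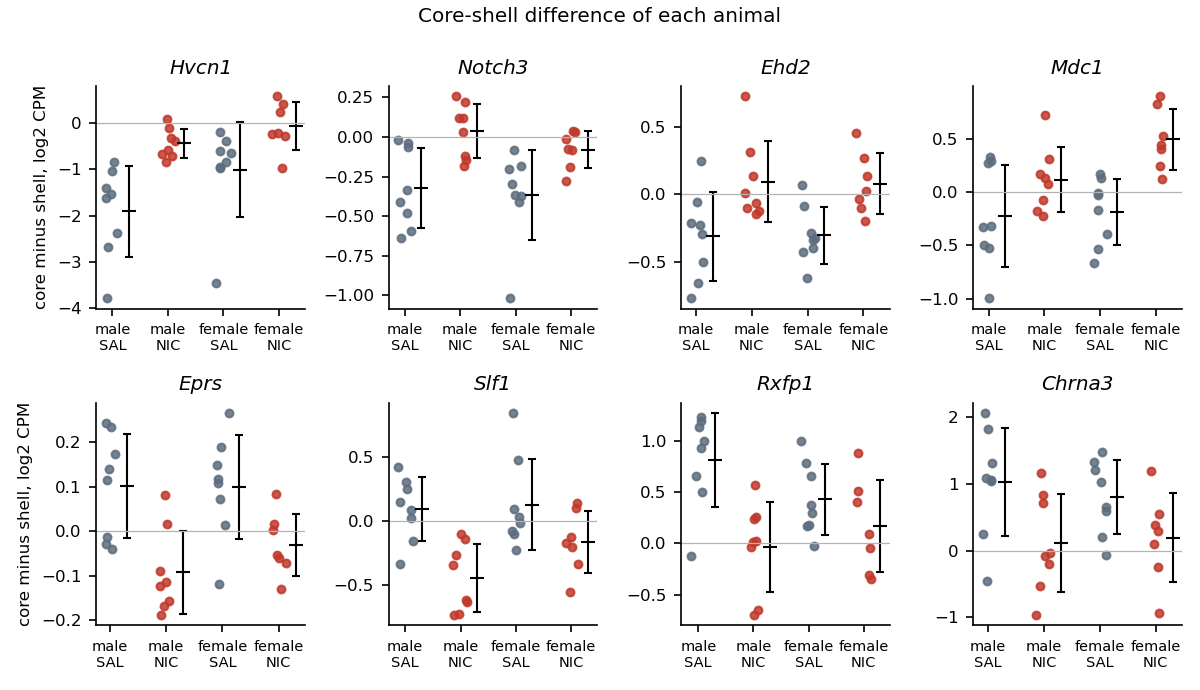
Core minus shell difference in log2 CPM of each animal for 7 genes with small unadjusted p-values and for the nicotinic receptor subunit Chrna3. Animals are grouped by sex and treatment, with group means and standard deviations as bars. NIC animals sit higher than SAL animals for Hvcn1, Notch3, Ehd2 and Mdc1 and lower for Eprs, Slf1, Rxfp1 and Chrna3, and the points of the groups overlap.

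Across these 20 genes, the unadjusted p was under 0.05 whichever single animal was left out, with a highest value of 0.00368, and also without both males 9 and 1. The direction was the same as over both sexes in 18 genes within batch C (17 without male 9) and in 19 within batch J. With batch as a term all 20 kept their direction and 8 had an unadjusted p under 0.05. Of the 20 genes, 6 also differed between core and shell at an adjusted p under 0.05, beside 36.4% of all genes tested.

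A shifted difference can come from the core, from the shell or from both. Of the 956 genes with an unadjusted p under 0.05, 898 (93.9%) had NIC effects of opposite sign in core and shell, against 48.5% of all 14290 genes with a mean of at least 1 CPM. That excess is fixed by choosing genes on the difference, and nothing is read from it. The change was larger in the core for 615 of them (64.3%), against 56.8% of all genes. Choosing genes on the difference affects that share too, and nothing is read from it either. In Hvcn1 the core effect of 0.80 was larger than the shell effect of -0.41, in Notch3 and Rasl10b the core carried the shift, and in Chrna3 the shell effect of 0.53 was larger than the core effect of -0.23.

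**Figure D3:**
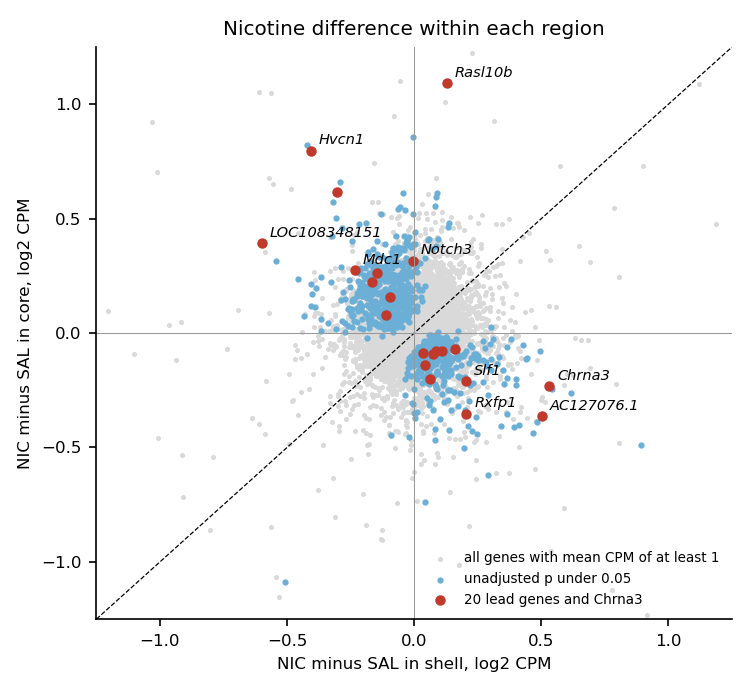
NIC minus SAL effect in the core (vertical axis) against that in the shell (horizontal axis), in log2 CPM, for genes with a mean of at least 1 CPM, with the 20 lead genes and Chrna3 in red and a few genes of larger effect outside the axes. The genes with an unadjusted p under 0.05 lie away from the line of equal effects because they were chosen on the difference. Of these, 615 of 956 had the larger change in the core, a share that the same choice affects.

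Nicotinic receptor subunits are the direct targets of the drug. Only 4 of the 16 subunit genes were tested with a symbol, and a single member passed an unadjusted p of 0.05 over both sexes. Chrna3 (ENSRNOG00000013829), the alpha3 subunit that pairs with beta4 or beta2, was shifted toward the shell by -0.83 (SE 0.277, unadjusted p = 0.00532, adjusted p = 0.783; permutation p = 0.00472). In male NIC rats its difference had a lowest, median and highest value of -0.96, -0.06 and 1.16, and in male SAL rats of -0.46, 1.08 and 2.07. In female NIC rats the values were -0.94, 0.29 and 1.19 and in female SAL rats -0.07, 0.84 and 1.48. Chrna3 was higher in the core in 14 of 16 SAL animals and in 8 of 15 NIC animals, with overlapping ranges. The level was low, at 1.35 CPM in NIC core and 1.64 in SAL core, and at 1.22 in NIC shell and 0.887 in SAL shell. Without males 9 and 1 the shift was -0.85 (unadjusted p = 0.00248), and within batches C and J it was -0.99 and -1.09. Without male 9 the batch C value was -0.41. For the others the NIC effect was -0.15 for Chrna1, the muscle-type alpha subunit, 0.14 for Chrnb2, the main partner of alpha4 in brain, and -0.44 for Chrnb4, whose mean of 0.515 CPM was very low. Their unadjusted edgeR p-values were 0.324, 0.356 and 0.361 in that order. In females alone Chrna1 was at -0.43, with an unadjusted edgeR p of 0.0458. Of the chaperones and modulators of nicotinic receptors, 5 of 7 were tested and none had an unadjusted p under 0.05, with a median of -0.02.

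Genes of dopamine receptors and striatal signalling tended toward the core. Of 17 tested, 16 had a NIC effect above 0, with a median of 0.20 beside 0.01 for all genes with a symbol, and 3 had an unadjusted p under 0.05. These were the striatal phosphodiesterase Pde10a at 0.48 (SE 0.186), the calmodulin-dependent phosphodiesterase Pde1b at 0.32 (SE 0.149) and Gng7 at 0.36 (SE 0.169), a G protein gamma subunit that couples the D1 receptor to adenylyl cyclase. Pde10a had medians of -0.42 in male SAL and -0.12 in female SAL rats, and of 0.06 in male NIC and 0.49 in female NIC rats. Its values overlapped widely, from -0.69 to 1.50 under NIC and from -1.49 to 1.01 under SAL. With no animal block the unadjusted p was 0.0841 for Pde10a, 0.170 for Pde1b and 0.170 for Gng7, and with batch as a term it was 0.219, 0.389 and 0.301. Without males 9 and 1 the list had 2 members with an unadjusted p under 0.05 and a median of 0.17, and its median in males alone was 0.04 in place of 0.13. All 8 direct pathway genes tested were above 0, with a median of 0.23, and 1 of them, the transcription factor Ebf1 at 0.44, passed an unadjusted p of 0.05. The edgeR p of Ebf1 was 0.0381 with all animals and 0.111 without males 9 and 1. With batch as a term 0 members of either list passed, with medians of 0.25 and 0.42. In males the median of the direct pathway genes was 0.30, and 0.12 without males 9 and 1. Drd1 is in both lists.

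Some postsynaptic scaffold genes were shifted to the same side. Of 12 tested, 3 had an unadjusted p under 0.05, all toward the core, and the list median was 0.14. They were the membrane-associated guanylate kinase Dlg1 at 0.15 (SE 0.0586), Homer3 at 0.23 (SE 0.0898) and the kinase Camk2a at 0.41 (SE 0.180). In Homer3 all 15 NIC animals were above the SAL median of their own sex, with medians of 0.10 against -0.26 in males and 0.09 against -0.21 in females. With batch as a term the NIC effect was 0.22 for Dlg1 and 0.08 for Homer3, but -0.10 for Camk2a, which thus turned, and the list had a median of -0.03 with 0 members past an unadjusted p of 0.05. The list had 4 members with an unadjusted p under 0.05 in females, with a median of 0.25, and 1 in males, with a median of 0.05. The share of all genes with a symbol was 6.86% in females and 9.42% in males, and the difference between the sexes was not tested for the list.

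Some receptor genes of glutamate were shifted to the shell side. Of 14 glutamate receptor genes tested 2 had an unadjusted p under 0.05, the AMPA receptor subunits Gria4 at -0.21 (SE 0.0887) and Gria2 at -0.24 (SE 0.107), while the list median was -0.03. With no animal block their unadjusted p-values were 0.0510 and 0.0565, and with batch as a term 0.0919 and 0.448. None of the 8 genes of GABA synthesis, transport and receptors described here had an unadjusted p under 0.05, and their median was 0.05. Among 12 neuropeptide genes the one past an unadjusted p of 0.05 over both sexes was Crh, corticotropin-releasing hormone, at -0.60 (SE 0.241), with -0.91 in males and -0.27 in females. In females 2 others passed toward the shell, galanin (Gal) at -1.19 and prepronociceptin (Pnoc) at -0.47, named after their values were seen. Cplx2, a complexin that clamps vesicle fusion, was shifted toward the core by 0.40 (SE 0.175) as the only one of 11 vesicle release genes past an unadjusted p of 0.05 over both sexes, and the list median was -0.02. In males 3 of these genes passed toward the shell, the fusion proteins Snap25 at -0.42 and Syt1 at -0.24 and the synapsin Syn1 at -0.34. They were named after their values were seen. In females 1 of these genes passed, toward the core. The male median of the list was -0.08 with all animals and -0.01 without males 9 and 1. Over both sexes 2 members passed toward the core without these males. With batch as a term 0 passed, and the list median was -0.19. Over both sexes none of the 9 immediate early genes tested had an unadjusted p under 0.05, and their median was 0.10. In males 2 of them passed toward the shell, Ier5 at -0.54 and the transcription factor Nr4a2 at -0.84, both picked after their values were seen. The male value of Nr4a2 includes male NIC 9, at -1.34, where all other male NIC rats were above 0. The male median of the immediate early genes was -0.08 with all animals and 0.04 without males 9 and 1. With batch as a term their median over both sexes was -0.14, with 1 member past an unadjusted p of 0.05 toward the shell.

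Neurocan (Ncan), a proteoglycan of the perineuronal matrix, was the only one of 7 matrix genes past an unadjusted p of 0.05. Its NIC effect was 0.24 (SE 0.0679, unadjusted p = 0.00143, adjusted p = 0.783). Male NIC rats had a median of 0.00 and ranged from -0.13 to 0.21, and male SAL rats had a median of -0.14 and ranged from -0.55 to 0.18. In females the median was 0.16 under NIC, from -0.10 to 0.35, and -0.20 under SAL, from -0.51 to 0.08. All 15 NIC animals were above the SAL median of their sex, and the ranges overlapped. Without males 9 and 1 the effect was 0.27, whereas with batch as a term it was 0.09 (unadjusted p = 0.478), and within batches C and J it was -0.03 and 0.24.

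When the sexes were given separate NIC effects, 1084 genes (6.57%) in males and 734 genes (4.45%) in females had an unadjusted p under 0.05, and 0 passed adjustment in either sex by edgeR, with lowest adjusted p-values of 0.736 and 0.572. The NIC effects of females and males differed at an unadjusted p under 0.05 for 778 genes (4.71%), and 0 passed adjustment, with a lowest adjusted p of 0.957. Without male SAL 1 the male count was 1983 and the count of sex differences was 1267. By DESeq2 1 gene passed adjustment in females, which was Dlx1 (adjusted p = 0.0288).

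Dlx1 (ENSRNOG00000001520) is a homeobox factor of GABAergic neuron development and was a shell-side gene over all animals, at -0.60. In females its difference ran from -1.42 to -0.46 with a median of -0.98 under NIC and from -0.44 to 0.32 with a median of -0.19 under SAL, so that the groups did not overlap. In males the medians were -0.62 under NIC and -0.70 under SAL, with ranges from -1.08 to -0.14 and from -1.21 to 0.03. The NIC effect was -0.82 (SE 0.172, unadjusted p = 4.01e-05) in females and 0.04 in males. The difference of the effects was -0.85 (SE 0.240, unadjusted p = 0.00117, adjusted p = 0.957). Female SAL rats were thus the group with the weakest shell excess of Dlx1, and female NIC rats were closer to the males. Within batch J, the female batch with both treatments, the NIC effect was -0.81.

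Lamc1, the gamma1 chain of laminin, was shifted toward the core in females by 0.43 (SE 0.0951, unadjusted p = 6.93e-05) and had an effect of -0.03 in males. Female NIC rats had values of Lamc1 from 0.11 to 0.50 and female SAL rats from -0.60 to 0.15. The sex difference of Lamc1 had an unadjusted p of 0.00139. Tppp3, a tubulin polymerization-promoting protein, was shifted toward the shell in females by -0.55 (SE 0.137, unadjusted p = 0.00035) and had an effect of 0.02 in males. Dnai1, a dynein chain of motile cilia, had an effect of -0.996 in the female rats and 0.27 in the male rats, and the unadjusted edgeR p of that sex difference was 0.00079.

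In males the smallest p toward the shell was that of the olfactory receptor gene Olr59, with an effect of -0.98 (SE 0.225, unadjusted p = 0.000134) and one of 0.04 in females. The sex difference of Olr59 had an unadjusted edgeR p of 0.00425. Male SAL rats were core-side at 0.40 to 1.57 with a median of 1.18, and male NIC rats spread from -0.80 to 0.83 with a median of 0.31. Olfactory receptor genes belong to a large family of similar sequences, among which estimated counts may be split, so the value is uncertain. Opposite directions were seen for Kcp, a secreted regulator of BMP signalling, at 0.53 in males and -0.84 in females, and for Asl, the argininosuccinate lyase, at 0.31 and -0.18. The unadjusted edgeR p of the sex difference was 0.000743 for Kcp and 0.000775 for Asl. The shell markers Dlk1 (0.95 in males and -0.88 in females) and Calcr (1.40 and -1.52), also had opposite signs in the sexes. Without male 9 the male values were 0.63 and 0.79.

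**Figure D4:**
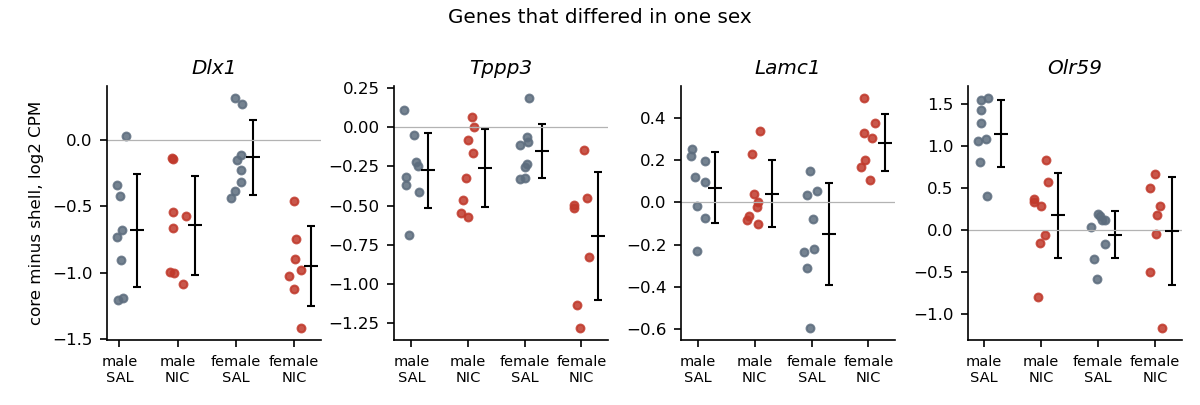
Core minus shell difference in log2 CPM of each animal for Dlx1, Tppp3, Lamc1 and Olr59. Animals are grouped by sex and treatment, with group means and standard deviations as bars. Female NIC and SAL rats are apart for Dlx1, where they do not overlap, and nearly apart for Lamc1 and Tppp3, while for Olr59 it is the male groups that are apart for the most part.

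Markers of cell types that border the NAc or vary with dissection were followed beside these results. All 9 meningeal fibroblast markers tested were higher in the shell over all animals and all 9 had a NIC effect above 0, with a median of 0.36, although none had an unadjusted p under 0.05. With batch as a term 1 of the 9 passed, toward the core, and the median was 0.50. The summed level of these markers, as a core-shell difference, ran from -1.15 to 1.29 with a median of -0.46 in NIC animals and from -1.68 to 0.57 with a median of -0.65 in SAL animals. Of 6 endothelial markers 2 had an unadjusted p under 0.05, both toward the core, which were the angiopoietin receptor Tek at 0.19 and the VEGF receptor Kdr at 0.21. With batch as a term 0 of the 6 passed, and with no animal block Kdr had an unadjusted p of 0.0632. Among 4 mural cell markers Rgs5 was at 0.31 (SE 0.149), and -0.01 with batch as a term, and the list median was 0.24. The shifts of Notch3 and Ehd2 had the same direction as these vascular and meningeal lists, and the part of such cells in them was not tested. None of the 6 microglia markers had an unadjusted p under 0.05, and their NIC effects had a median of 0.07 and ran from -0.03 to 0.20, beside the 1.20 of Hvcn1.

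The ependymal list had a median of -0.29 over both sexes, with 0 of 4 members past an unadjusted p of 0.05, and a median of -0.82 in females and 0.25 in males. In females 3 of the 4 had an unadjusted p under 0.05, and they were the motile cilium genes Ccdc153 at -0.86, Rsph1 at -0.79 and Dynlrb2 at -1.23, named here after their values were seen. The summed level ran from -1.09 to -0.11 with a median of -0.62 in female NIC rats and from -0.32 to 1.36 with a median of 0.14 in female SAL rats. Dnai1 and Tppp3, which were shifted toward the shell in the same females, are also genes of ciliated cells, and the part of ependymal cells in their values was not tested. The 7 septal and basal forebrain markers had a median of -0.15, with 3 above 0 and 1 past an unadjusted p of 0.05. That gene, the vesicular glutamate transporter Slc17a6, was shifted toward the shell by -0.56 (SE 0.206, unadjusted p = 0.0098), and it is also the transporter of glutamatergic cells outside the striatum. Oligodendrocyte markers had a median of -0.01, precursor markers 0.09 and astrocyte markers 0.00, with none past an unadjusted p of 0.05 over both sexes.

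**Figure D5:**
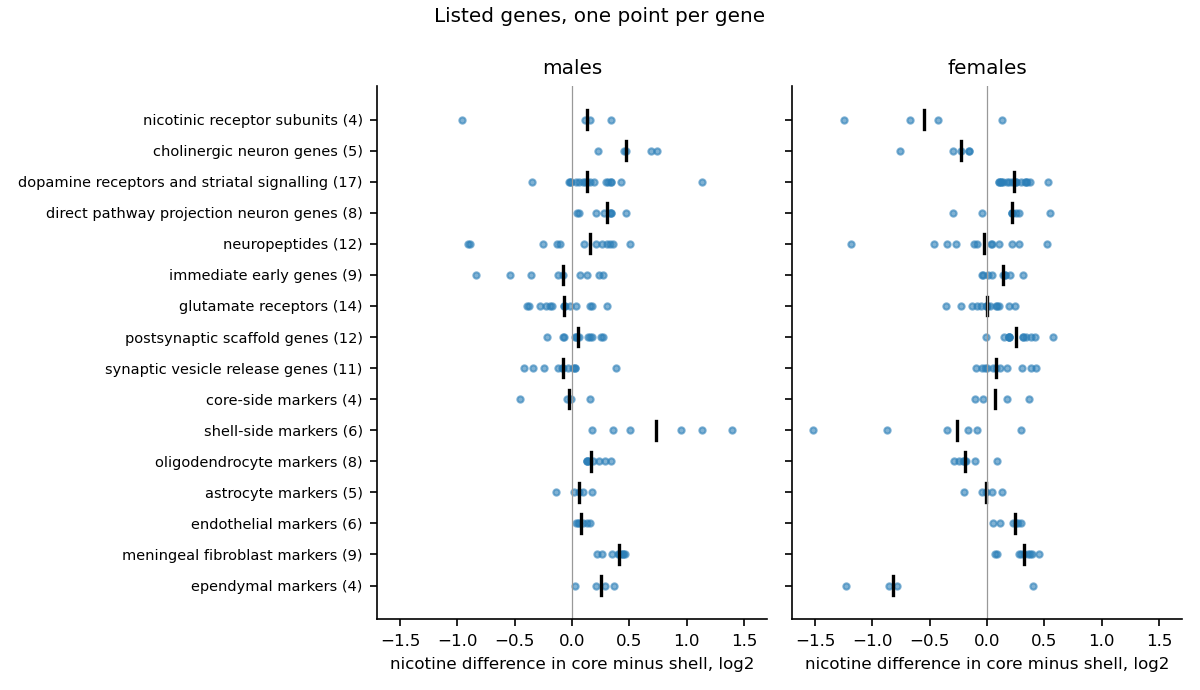
NIC effect on the core-shell difference of each tested member of 16 gene lists, in log2 CPM, in males and in females, with the median of each list as a black tick. Dopamine signalling, direct pathway and scaffold genes lie mostly above 0 in both sexes with all animals included, and 3 of the 4 ependymal members lie below 0 in females, with a median of -0.82 against 0.25 in males.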

How the data were processed

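RNA-seq libraries of NAc core and shell were analysed from the deposited gene table, whose values are estimated counts that the authors made with fastp 0.20.0 and Salmon 0.12.0 per the labels and summed per gene. The table holds whole numbers, and 0 columns lacked a sample. Estimated counts divide reads among similar transcripts, so members of gene families are uncertain. Symbols were taken from supplementary gene lists of the study, and coordinates were not used.

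Genes with a count of at least 10, scaled to library size, in 3 or more libraries were tested. Counts were fitted with edgeR 4.0.16 (quasi-likelihood, TMM; R 4.3.3) with a block for each animal, a core-by-sex term and a core-by-NIC term, and in a further fit with a NIC term for each sex. The study used DESeq2 within each region, which holds no core-shell term. Per-animal differences used log2 CPM with a prior count of 2. Single values were tested by 100000 permutations of treatment within sex (two-sided, Python 3.11.15, numpy 2.4.6). The threshold was 0.05, and p-values were adjusted by the Benjamini-Hochberg method over all genes tested. Tests were checked on simulated counts. Whether each animal stands for a separate litter is not given in the sources used here.

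Pairs come from the labels, which give core and shell of the same animal. Deviations from group means correlated with a median of 0.132 within animals, above 0.1 in 17 of 31, and of -0.0216 between animals of a group. The core library correlated best with the shell of its own animal in 2 of 31.

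Named genes had a symbol and a mean of at least 1 CPM. They were the 10 with the smallest p in each direction over both sexes, 3 in each direction per sex, 4 for the sex difference, up to 4 per gene list at an unadjusted p under 0.05, core and shell markers with the 5 largest region differences each way, and the nicotinic subunits tested. Chrnb4, Drd3 and Hcrt, which are also named, were below 1 CPM. Some list members are not reported here, and list counts and medians leave them out. Members, lists and tests were chosen with earlier results of these data known. Alternatives were DESeq2 1.42.0 size factors and test, limma 3.58.1 on differences, other count filters and prior counts, no animal block, each sex alone, female 1 added, batch as a term, animals with 1 batch, and each animal left out. Leaving out males 9 and 1 together was chosen after seeing the data. Fits that left out 1 animal kept the dispersion trend of all 31, and fits that left out more animals estimated it anew. Of the authors' own comparison tables only the gene symbols were used, which decided which genes could be named or listed, and not their fold changes or p-values.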

Additional observations from a re-analysis of the deposited data

Results flagged for a closer look

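Within groups of 7 or 8 animals, a value was picked out where its gap to the next animal was large for the range of the group (Dixon's 95% limit). This held for 28 of 284 groups of values, against 14.2 expected at 1 in 20. Male NIC 9 gave 9 of them, more than any other animal. Its core-shell differences stood apart for Myl12a at 0.38, Calcr at 1.38, Nts at 0.75, Zcchc12 at 0.47, Slc47a1 at 5.67, Lyzl4 at -2.42, Nr4a2 at -1.34 and Srpk3 at -0.13, and the correlation of its difference with the other animals was -0.243. Male SAL 1 stood apart for Ebf1 at -0.92, Cartpt at 3.39 and Nts at 3.14.

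Female NIC 8 stood apart for Fbxo33 at -0.79, Slc17a6 at -2.39, Scn4b at 2.46 and the root mean square difference at 0.748. Female NIC 5 did so for Gria2 at -0.50, Cplx2 at 1.68 and Prdm12 at -1.16. Among female SAL rats, 13 had the lowest Hvcn1 at -3.46 and the lowest Notch3 at -1.02, and leaving this animal out kept both genes at an unadjusted p under 0.05. Male SAL 6 stood apart for Snx4 at 0.45 and Rgs5 at -1.62, and male SAL 4 for Chrna1 at -1.30. Single values were picked out in female SAL 15 for Asl at 0.27, in female SAL 14 for Crh at -1.51, in female SAL 16 for Chrna1 at -0.49 and in female SAL 11 for its correlation with the other animals, 0.132.

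Female NIC 1, which the rule leaves out and only an alternative adds, had a tyrosine hydroxylase (Th) level of 329 CPM in its core library. The highest core library of any other animal had 3.98 CPM, and the median of the VTA libraries was 717 CPM.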

How the results depend on the processing

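No alternative gave a gene at an adjusted p under 0.05 over both sexes, in males or for the sex difference, and the DESeq2 test gave 1 in females. Over both sexes the count at an unadjusted p under 0.05 was 667 with no replicate block, and it lay between 689 and 1445 in all other alternatives. The male count was 660 with no replicate block and between 798 and 1983 with 1 animal left out, the highest without male SAL 1 and the lowest without male NIC 9. The count of sex differences lay between 607 and 1267 with 1 animal left out. The male share shifted toward the core was 43.8%, and 55.8% with no replicate block, and the share of sex differences higher in females was 42.3% and 27.7%. Dropping the block moved neither the female total nor the total of sex differences by over 1.5 times, and 8 named results were then no longer past an unadjusted p of 0.05 (Pde10a, Pde1b, Gng7, Gria4, Gria2, Nos1, Kdr and the core-shell difference of Rasgrp2).

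The NIC minus SAL difference of the root mean square, -0.000577, turned to 0.00274 with a prior count of 0.5, 0.00476 over all genes, 0.00028 as 1 minus the correlation of core and shell, and 0.0161 in animals with 1 batch. With 1 animal left out it lay between -0.0170 and 0.00722. Of 2317 values of named genes under alternatives, 2152 kept direction and side of the threshold, 159 were no longer past an unadjusted p of 0.05, 3 passed it, and 3 reversed, all with batch as a term (Camk2a -0.10, Rgs5 -0.00923, Chrnb2 -0.24). The causes were not tested. Genes near 1 CPM, such as Hvcn1 and Chrna3, rest on few reads per library.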

Other observations

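Cholinergic neuron genes, which mark the interneurons of the NAc and cells of the neighbouring basal forebrain, had different directions in the sexes. All 5 tested were higher in the shell over all animals. Other shell-side lists had the same signs, with medians in males and females of 0.73 and -0.26 for shell-side markers and 0.48 and -0.21 for choroid plexus markers. In males 2 of 5 tested had an unadjusted p under 0.05, beside 9.42% of all genes with a symbol. They were choline acetyltransferase (Chat) at 0.74 and the vesicular acetylcholine transporter Slc18a3 at 0.68. The male list median was 0.47, and 0.39 without males 9 and 1. In females the transcription factor Zic4 was at -0.76 and the list median was -0.23. These genes were named after their values were seen, and the difference between the sexes was not tested for the list.

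Muscarinic receptor and acetylcholine breakdown genes had a median of 0.13 over 5 tested, with none past an unadjusted p of 0.05. Interneuron genes had a median of -0.04 over 7 tested, with 3 above 0 and 1 past an unadjusted p of 0.05. That gene, the neuronal nitric oxide synthase Nos1, was shifted toward the core by 0.42 (SE 0.191), and by 0.36 without males 9 and 1. The unadjusted edgeR p of Nos1 was 0.0371 with all animals and 0.0799 without these males. Choroid plexus markers had a median of 0.15 over 7 tested, 0.48 in males and -0.21 in females. Their summed core-shell difference had a median of -0.93 in NIC animals, from -1.48 to 1.93, and of -1.14 in SAL animals, from -4.39 to 0.23. Hypothalamic neuropeptides had a median of -0.59 over 4 tested, 0.06 in males and -1.40 in females, and 1 passed an unadjusted p of 0.05. That gene, hypocretin (Hcrt), was at -1.62 over both sexes, 0.05 in males and -2.71 in females, with a mean of 0.441 CPM, and was named after its value was seen. No member of that list passed without males 9 and 1 or with batch as a term.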
